A study of Homo sapiens with 12 samples.

Results

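The 8 genes described here encode the enzymes that prepare and make the covalent cross-links of collagen and elastin: the 5 lysyl oxidases LOX, LOXL1, LOXL2, LOXL3 and LOXL4 and the 3 collagen lysyl hydroxylases PLOD1, PLOD2 and PLOD3. They were picked by gene symbol from the deposited count files, which hold 26499 genes, and all 8 were present. Messenger RNA, enriched by poly(A) selection, was sequenced in A375 and SKMel28, established human melanoma lines that both carry an activating BRAF mutation, in a study set up to ask how the IGF1 pathway takes part in resistance to BRAF- and MEK-directed drugs. Each line was sampled as a sensitive culture and as a resistant derivative, which makes 4 groups of 3 libraries each. All cells were grown in DMEM with 10% FBS, and the resistant cells were kept in vemurafenib, a BRAF inhibitor, at 1 µmol/L. The labels name no drug for sensitive cells, and an effect of resistance cannot be told apart from that of vemurafenib in the medium. The labels do not say whether a resistant derivative is a clone or a pool, nor whether the libraries within a group stand for separate cultures. The p-values therefore measure the spread between these libraries, which may be technical.

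Lysyl oxidases are secreted copper-dependent amine oxidases that turn lysine and hydroxylysine side chains of collagen and elastin into reactive aldehydes, from which cross-links form. Lysyl hydroxylases work earlier, in the endoplasmic reticulum, where they hydroxylate collagen lysines with iron, 2-oxoglutarate and ascorbate, and the hydroxylysine they leave gives more stable cross-links and a site for sugars. In tumours such as melanoma these enzymes are studied for their part in the stiffness of the matrix and in invasion, and several of them, LOX and PLOD2 among them, are known targets of hypoxia-inducible factors.

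ACGTG with GCGTG is the hypoxia response core that hypoxia-inducible factors recognise. Among the 7 members with a sequence taken, upstream sequence is shown for the 4 whose changes are largest or whose upstream region holds ACGTG. Each is the 250 bases before the RefSeq start in GRCh38.p14, written 5′ to 3′ on the strand of the gene, with every core match on either strand in capitals. LOX lies on the minus strand and has more than 1 RefSeq start, of which a single one was taken (chr5:122078260-122078509), LOXL1 on the plus strand (chr15:73926212-73926461), LOXL4 on the minus strand (chr10:98268195-98268444) and PLOD2 on the minus strand (chr3:146161185-146161434).
LOX: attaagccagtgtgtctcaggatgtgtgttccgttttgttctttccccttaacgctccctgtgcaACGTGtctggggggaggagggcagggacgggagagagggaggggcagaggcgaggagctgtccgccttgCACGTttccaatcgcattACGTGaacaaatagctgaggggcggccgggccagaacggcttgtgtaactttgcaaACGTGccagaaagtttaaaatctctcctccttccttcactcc
LOXL1: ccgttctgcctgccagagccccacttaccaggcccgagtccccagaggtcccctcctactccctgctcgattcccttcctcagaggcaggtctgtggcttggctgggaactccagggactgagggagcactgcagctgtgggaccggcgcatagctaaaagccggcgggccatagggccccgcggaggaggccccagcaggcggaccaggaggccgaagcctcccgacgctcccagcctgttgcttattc
LOXL4: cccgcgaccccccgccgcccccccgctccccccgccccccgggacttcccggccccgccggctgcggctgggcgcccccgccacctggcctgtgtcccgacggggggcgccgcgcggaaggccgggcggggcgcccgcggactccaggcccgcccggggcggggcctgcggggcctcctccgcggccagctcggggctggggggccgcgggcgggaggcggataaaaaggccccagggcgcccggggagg
PLOD2: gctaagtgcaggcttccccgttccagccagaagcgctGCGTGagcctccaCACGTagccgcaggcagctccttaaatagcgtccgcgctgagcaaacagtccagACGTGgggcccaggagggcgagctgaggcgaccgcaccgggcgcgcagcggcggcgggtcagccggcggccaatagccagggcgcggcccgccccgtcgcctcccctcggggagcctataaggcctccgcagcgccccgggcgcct
LOX held 4 matches to ACGTG, beginning at positions -185, -116, -98 and -42, where -1 is the base before the start. PLOD2 held 2 matches to ACGTG and 1 to GCGTG. No match to either core was found in the LOXL1 and LOXL4 windows. A sequence was matched for 7 of the 8 members, and among those not printed PLOD1 held 2 matches to GCGTG, while LOXL3 and PLOD3 held none. ACGTG occurs on either strand in 18.7% of 27305 upstream windows of the same length, GCGTG in 31.9% and at least 1 of them in 43.1%. None of the 7 windows held the AP-1 letters TGACTCA, the E-box CACGTG (which contains ACGTG) or the TEAD letters CATTCCA, which occur in 4.16%, 6.49% and 3.59% of all windows. These matches describe letters only and say nothing of binding.

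Between 28496518 and 37721363 reads per library were assigned to genes. Levels are given as CPM, read counts scaled to a common library size with edgeR's TMM factors, and changes as log2 fold changes ± SE from edgeR's quasi-likelihood test, two-sided, over the 15506 genes that passed the filter on low counts. For a difference between the lines in the change, the SE is instead the root of the summed squares of the SEs of the 2 changes. These 2 changes share no library. The p-values were adjusted over all of these genes by the Benjamini-Hochberg method, and a gene is named as called where the result was below 0.05. SKMel28 carried melanocyte markers at a high level, with a sum of 7571 to 8024 CPM over 10 genes in sensitive and 11165 to 11300 CPM in resistant libraries. In A375 the same sum was 394 to 405 CPM in sensitive and 42.7 to 47.2 CPM in resistant libraries, with TYR without reads in both groups and DCT without reads in the sensitive group. The sums do not speak for each gene. With resistance edgeR called 2 of the 10 genes higher and 5 lower in A375, and 6 higher and 4 lower in SKMel28. The 2 genes called higher in A375 had group means of at most 0.347 CPM there. That count of 2 went as low as 0 when the fit was varied. In A375 MITF went from 39.6 to 31.0 CPM and PAX3 from 14.0 to 11.7 CPM. There 5 genes reached 1 CPM in sensitive and 2 in resistant cells. The sum over 8 fibroblast markers, genes of a cell type rich in these enzymes, lay between 17.7 and 29.3 CPM in all 12 libraries. In these bulk samples fewer cells that express a gene and less RNA per cell cannot be told apart.

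With resistance, the members changed in both lines but not in the same pattern. In A375, LOXL1, LOXL2 and PLOD2 rose, LOXL3, LOXL4, PLOD1 and PLOD3 fell, and LOX did not pass the test, so that 7 of 8 members were called. Over all genes tested 51.3% were called in A375, 25.0% as higher and 26.3% as lower. In SKMel28, LOXL2 and PLOD2 rose, LOX, LOXL3, PLOD1 and PLOD3 fell, and LOXL1 did not pass the test. LOXL4 was also called lower there and made 7 of 8, but on 14 and 4 reads, and the call is lost without either of 2 libraries named below. LOXL1 and LOXL4 passed the filter on low counts through A375 libraries alone. Of the 6 members with at least 10 reads in every library, 5 were called in A375 and 6 in SKMel28. Of all genes tested, 70.0% were called in SKMel28, 34.2% as higher and 35.8% as lower. Resistant and sensitive libraries did not overlap for 7 members in A375, where this held for 57.9% of all tested genes, and for 6 in SKMel28, where it held for 71.1%. The median change over the 8 members was -0.30 in A375 and -0.73 in SKMel28 on the log2 scale, where the median over all tested genes was 0.00 and -0.01. Over the 6 members with reads in every library it was -0.30 and -0.36.

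**Figure D1:**
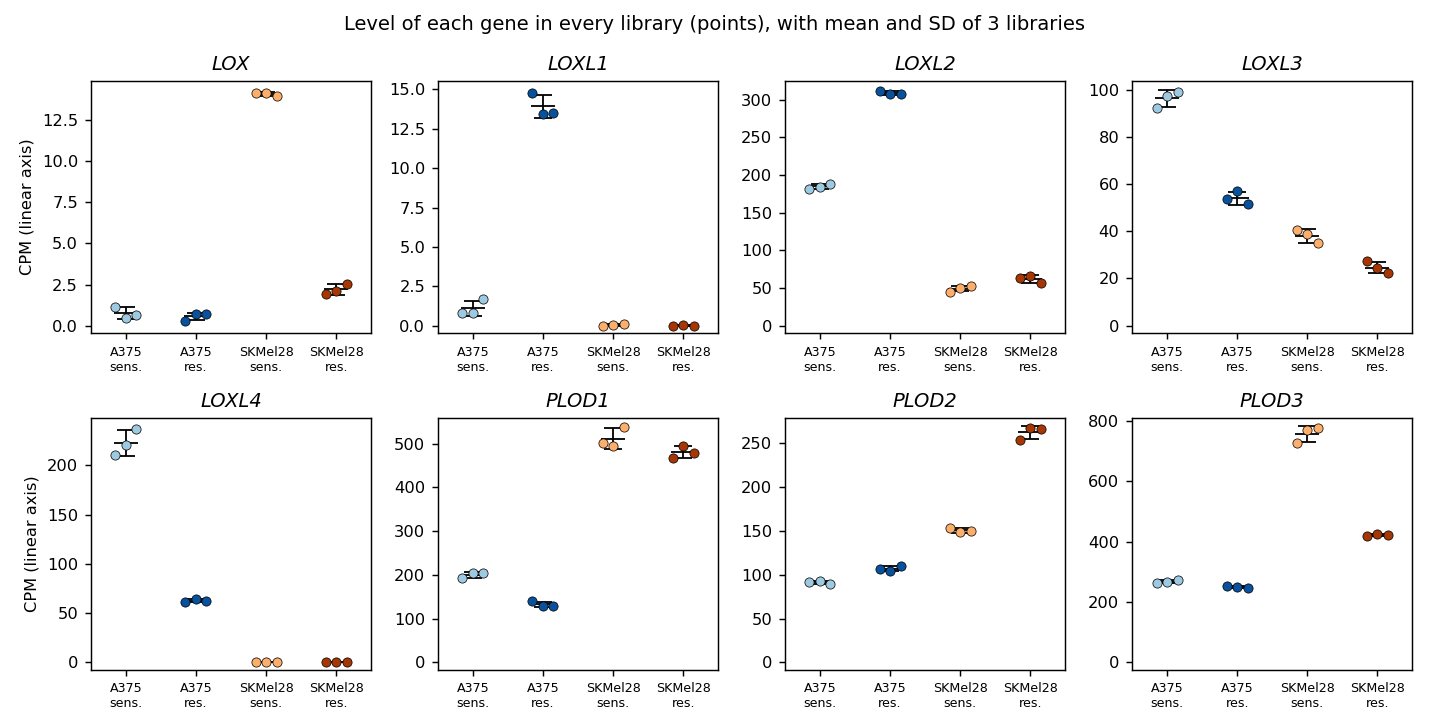
Level of each member in CPM (linear axes, 1 panel per gene) in every library, with points for the 3 libraries of each group and bars for their mean and SD. LOX stands near 14 CPM only in the sensitive SKMel28 libraries and LOXL1 near 14 CPM only in the resistant A375 libraries, while LOXL4 is seen in A375 and the 3 PLOD genes are higher in SKMel28.

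LOX, the founding member of the family, whose proenzyme is matured by the protease BMP1, was the scarcest oxidase in A375 and fell sharply in SKMel28. The gene lies at chr5:122063195-122078360 (GRCh38, minus strand). In SKMel28 the 3 sensitive libraries held 14.1, 14.1 and 14.0 CPM and the 3 resistant libraries 1.93, 2.11 and 2.57 CPM. All resistant libraries lay far below all sensitive ones, a 6.37-fold difference (log2 fold change -2.67 ± 0.17, edgeR adjusted p = 7.47e-18). In A375 LOX was at 1.16, 0.488 and 0.665 CPM in sensitive and at 0.308, 0.684 and 0.696 CPM in resistant libraries. These values overlap, and the log2 fold change of -0.51 ± 0.31 did not pass the test (edgeR adjusted p = 0.181). It rested on 82 reads in the sensitive and 57 in the resistant group and was -0.04 without sensitive replicate 1, the library with the highest value, and -0.17 without resistant replicate 1, the library with the lowest. The change in A375 minus that in SKMel28 was 2.16 ± 0.36 (edgeR adjusted p = 2.63e-06).

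LOXL1, the family member known for its role in elastic fibre upkeep, showed the largest rise among the members. In A375 it stood at 0.832, 0.823 and 1.66 CPM in the sensitive libraries and at 14.8, 13.4 and 13.5 CPM in the resistant ones. Every resistant library was above every sensitive one, a 12.8-fold rise (log2 fold change 3.68 ± 0.20, edgeR adjusted p = 4.24e-20). SKMel28 had almost none of this transcript: the sensitive libraries held 0, 2 and 4 reads and the resistant libraries 0, 1 and 0 reads. The difference between 6 and 1 reads did not pass the test (edgeR adjusted p = 0.113), although it did without sensitive replicate 1, the sensitive library without reads, at 0.0427, within a range of 0.0427 to 0.458 over 17 alternatives. The change in A375 minus that in SKMel28 passed the test at 6.01 ± 1.33 (edgeR adjusted p = 0.000212), but its size rests on those 7 SKMel28 reads and is no bound: it was 7.89 without SKMel28 resistant replicate 2, the only resistant library with a read, and 5.10 without SKMel28 sensitive replicate 3.

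The antisense gene LOXL1-AS1 shares 335 exon bases with LOXL1 (chr15:73925989-73952137, plus strand) on the opposite strand. It held 0.857, 0.915 and 1.13 CPM in sensitive and 1.59, 2.53 and 2.03 CPM in resistant A375 libraries, all resistant values being higher (log2 fold change 1.09 ± 0.32, edgeR adjusted p = 0.00479). No SKMel28 library held a read of it, so that its level there was below the limit that 3 reads over a group allow, 0.0332 CPM in sensitive and 0.0304 CPM in resistant cells. The counting was unstranded by the deposited files' names, and reads of the shared bases cannot be told apart by strand. The totals hold a class of ambiguous reads that were counted for no gene, 1.14% to 1.39% of counted reads. Whether reads of the shared bases fell in that class was not tested. Over the 3 A375 libraries of a group, LOXL1 went from 110 to 1428 reads and LOXL1-AS1 from 98 to 209.

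LOXL2, an oxidase that cross-links type IV collagen of basement membranes, rose in both lines. In A375 it went from 182, 184 and 188 CPM in sensitive to 311, 307 and 308 CPM in resistant libraries, which did not overlap (log2 fold change 0.74 ± 0.04, edgeR adjusted p = 1.28e-18). In SKMel28 it went from 45.1, 49.9 and 52.6 CPM to 62.7, 66.4 and 56.8 CPM, again without overlap (log2 fold change 0.33 ± 0.05, edgeR adjusted p = 1.42e-07). The rise was larger in A375, by 0.41 ± 0.07 (edgeR adjusted p = 6.32e-07). LOXL2 lies at chr8:23297189-23425328 on the minus strand, and 120 of its exon bases are shared with ENTPD4 on the same strand, which stood at 40.5 and 42.2 CPM in A375 and at 83.0 and 89.4 CPM in SKMel28, sensitive and resistant.

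LOXL3 (chr2:74532414-74555690, minus strand), an oxidase needed for palate and cartilage development, fell in both lines. In A375 it dropped from 92.3, 97.5 and 99.0 CPM to 53.5, 57.0 and 51.7 CPM (log2 fold change -0.83 ± 0.06, edgeR adjusted p = 9.90e-17). In SKMel28 it dropped from 40.3, 38.9 and 34.9 CPM to 27.2, 24.3 and 22.4 CPM (log2 fold change -0.63 ± 0.06, edgeR adjusted p = 1.17e-11). Resistant libraries were below sensitive ones without overlap in both lines. The difference between the lines was small, -0.21 ± 0.08 (edgeR adjusted p = 0.0329), and was lost in 9 of 17 alternatives, with adjusted p from 0.00449 to 0.188. Among these, 6 each left out a library: replicate 1 (0.0958) or 3 (0.148) of A375 resistant, 2 (0.0523) or 3 (0.0789) of A375 sensitive, 1 of SKMel28 resistant (0.188) and 3 of SKMel28 sensitive (0.112). LOXL3 shares 625 exon bases with HTRA2 and 216 with DOK1, both on the opposite strand, and these stood at 34.6 to 44.1 CPM and at 5.53 to 14.7 CPM over the 4 group means.

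LOXL4 (chr10:98247690-98268250, minus strand), the oxidase closest to LOXL2 and LOXL3 in domain layout, was an A375 gene that fell with resistance. Its sensitive A375 libraries held 210.5, 220.4 and 237 CPM and its resistant ones 61.0, 64.6 and 62.4 CPM. The groups were far apart, a 3.55-fold fall (log2 fold change -1.83 ± 0.05, edgeR adjusted p = 2.07e-31). SKMel28 libraries held 6, 3 and 5 reads when sensitive and 2, 2 and 0 reads when resistant. The ratio of these 4 to 14 reads per depth was 0.262, with a 95% exact interval of 0.0628 to 0.835 that covers counting error only. It passed the test (log2 fold change -1.84 ± 0.70, edgeR adjusted p = 0.0192) but not without SKMel28 resistant replicate 3, the library without reads (-1.26, adjusted p = 0.118), nor without SKMel28 sensitive replicate 1, the library with most reads (-1.61, adjusted p = 0.0751), within 0.0145 to 0.118 over 17 alternatives. The 2 changes differed by 0.01 ± 0.71 (edgeR adjusted p = 0.938), an SE too wide to show that they were alike.

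PLOD1 (chr1:11934205-11975538, plus strand), which hydroxylates lysines in the collagen triple helix and is mutated in a kyphoscoliotic form of Ehlers-Danlos syndrome, fell in A375. It went from 192, 204 and 204 CPM in sensitive to 140.1, 129 and 128 CPM in resistant A375 libraries, without overlap (log2 fold change -0.60 ± 0.04, edgeR adjusted p = 3.88e-17). In SKMel28 the sensitive libraries held 502, 494 and 538 CPM and the resistant ones 468, 495 and 479 CPM. These overlap, and although the log2 fold change of -0.09 ± 0.04 passed the test (edgeR adjusted p = 0.0300), it was lost in 7 of 18 alternatives, with adjusted p from 0.00196 to 0.303. Leaving out SKMel28 sensitive replicate 3, the highest library, gave -0.05 (0.303), and the call also went without SKMel28 resistant replicate 1 (0.115) or 3 (0.0676), A375 resistant replicate 2 (0.0590) or A375 sensitive replicate 2 (0.0516). The fall was larger in A375 by 0.51 on the log2 scale (A375 change minus SKMel28 change -0.51 ± 0.05, edgeR adjusted p = 4.28e-11).

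PLOD2 (chr3:146069440-146163653, minus strand), which hydroxylates the telopeptide lysines that lead to stable pyridinoline cross-links, rose in both lines. In SKMel28 it rose from 154, 149 and 149.7 CPM to 254, 268 and 266 CPM, a 1.74-fold change (log2 fold change 0.80 ± 0.04, edgeR adjusted p = 4.70e-23). The rise in A375 was smaller, from 91.4, 93.3 and 89.1 CPM to 107, 104 and 110.4 CPM (log2 fold change 0.23 ± 0.04, edgeR adjusted p = 2.34e-06). No resistant library fell within the range of the sensitive ones in either line. The A375 change minus the SKMel28 change was -0.57 ± 0.05 (edgeR adjusted p = 1.05e-12).

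PLOD3 (chr7:101205977-101218420, minus strand), the hydroxylase that also adds galactose and glucose to hydroxylysine, fell in SKMel28 and hardly moved in A375. The sensitive SKMel28 libraries held 727, 769 and 775 CPM and the resistant ones 419, 426 and 423 CPM, a clear gap (log2 fold change -0.84 ± 0.03, edgeR adjusted p = 1.09e-25). In A375 it was at 262, 267 and 273 CPM in sensitive and at 254, 251 and 247 CPM in resistant libraries, so that the groups were close but did not overlap (log2 fold change -0.09 ± 0.03, edgeR adjusted p = 0.0214). That A375 call was lost in 8 of 18 alternatives, with adjusted p from 0.00673 to 0.325: under DESeq2's size factors (0.171), library size alone (0.106), no filter (0.176) and DESeq2's test (0.144), and without A375 resistant replicate 1 (0.131), 2 (0.232) or 3 (0.325) or A375 sensitive replicate 3 (0.0970). The change in A375 minus that in SKMel28 was 0.75 ± 0.05 (edgeR adjusted p = 2.77e-18). PLOD3 shares 429 exon bases with ZNHIT1 on the opposite strand, which stood at 78.0 to 156 CPM over the 4 group means.

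**Figure D2:**
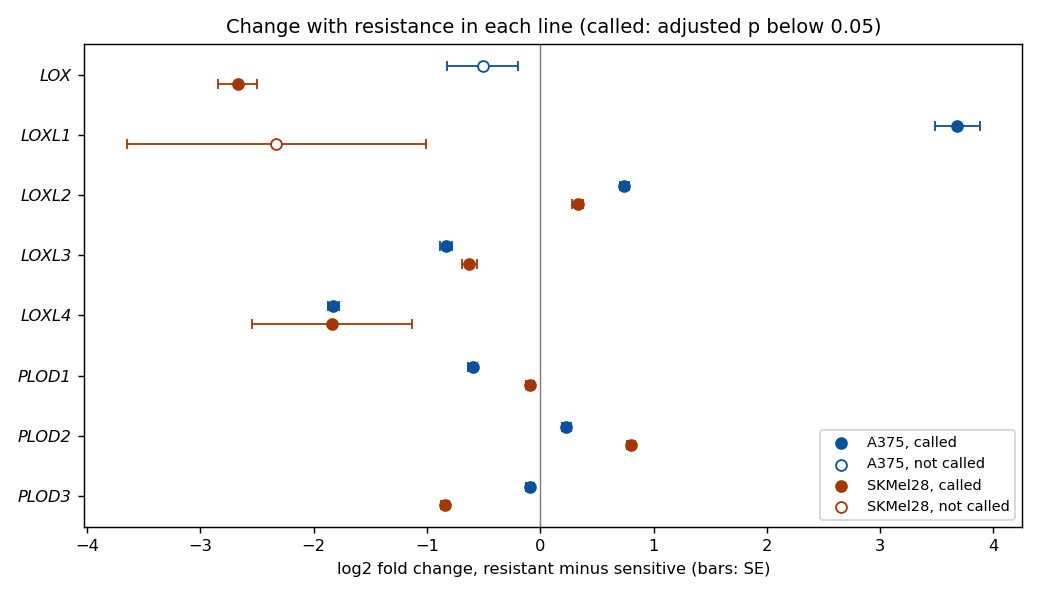
Log2 fold change of each member, resistant minus sensitive, in A375 and SKMel28, with bars for the SE and open points where the adjusted p was not below 0.05. LOXL2 and PLOD2 lie above 0 in both lines, LOXL3 and LOXL4 below 0 in both, and LOXL1 lies at 3.68 in A375 and LOX at -2.67 in SKMel28.

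The change with resistance differed between the lines for 7 of 8 members, all but LOXL4, where 63.8% of all tested genes differed, 31.4% upward and 32.4% downward. It differed for all 6 members with at least 10 reads in every library. The difference was positive, a more positive or less negative change in A375, for LOX, LOXL1, LOXL2 and PLOD3 and negative for LOXL3, PLOD1 and PLOD2. LOXL2, LOXL3, PLOD2 and the 2 marginal cases PLOD1 and PLOD3 had the same sign in both lines and differed in size. Where the hydroxylases are set side by side, PLOD1 fell mainly in A375 and PLOD3 mainly in SKMel28, as the tests of the difference given above show.

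A plain division separated the lines themselves: the 4 LOX-like genes were higher in A375 and LOX and the 3 hydroxylases were higher in SKMel28. LOXL1 and LOXL4 passed the filter on low counts through A375 alone and so had to differ between the lines. No SKMel28 library held 10 reads of either. The other 6 members were all called in sensitive cells, where 82.9% of tested genes were called (42.4% as higher in A375, 40.5% as lower), and all 6 in resistant cells, where 85.3% were (42.6% and 42.7%). LOXL4 held 22693 reads in sensitive A375 and 14 in sensitive SKMel28, a ratio of 1430 (95% exact interval 852 to 2615), and 6418 and 4 reads in resistant cells, a ratio of 1544 (603 to 5669).

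LOXL1 held 110 reads in sensitive A375 against 6 in sensitive SKMel28, a ratio of 16.2 (95% exact interval 7.20 to 45.0), and 1428 against 1 in resistant cells, a ratio of 1374 (246 to 54319). Its fitted log2 difference in sensitive cells moved from 3.95 to 4.86 without SKMel28 sensitive replicate 3, and in resistant cells from 9.96 to 11.84 without SKMel28 resistant replicate 2, since few SKMel28 reads carry it. LOX was 17.7-fold lower in sensitive A375 than in sensitive SKMel28 (log2 fold change -4.14 ± 0.20, edgeR adjusted p = 1.06e-22) and 3.94-fold lower in resistant A375 than in resistant SKMel28 (-1.98 ± 0.26, edgeR adjusted p = 4.51e-09).

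LOXL2 was 3.75-fold higher in A375 among sensitive and 4.99-fold higher among resistant cells, and LOXL3 2.53-fold and 2.19-fold higher. The hydroxylases were lower in A375: PLOD1 by log2 fold changes of -1.35 and -1.86, PLOD2 by -0.72 and -1.29 and PLOD3 by -1.50 and -0.75 in sensitive and resistant cells, all with edgeR adjusted p under that of the LOXL1 contrast in sensitive cells (1.28e-09). These fits share libraries with the comparisons of resistant and sensitive cells. Scaling to library size alone moved the median of all genes by 0.15 in the sensitive and 0.21 in the resistant contrast. It left the calls of the 6 members with at least 10 reads in every library in place in both contrasts, in the same direction. The calls of LOXL1 and LOXL4 also stayed, but the filter had fixed them.

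Ranked over the 4 groups, LOX ran from sensitive SKMel28 (mean 14.1 ± 0.0969 CPM, SD, n = 3) through resistant SKMel28 (2.20 ± 0.325) to sensitive (0.771 ± 0.348) and resistant A375 (0.563 ± 0.221), the last step not called. LOXL1 ran from resistant A375 (13.9 ± 0.754 CPM) to sensitive A375 (1.11 ± 0.482) and then to SKMel28, where sensitive and resistant cells could not be told apart. LOXL2 and LOXL3 had the A375 groups on top, LOXL2 with resistant and LOXL3 with sensitive cells leading in each line. All 3 hydroxylases had the SKMel28 groups on top, PLOD2 led by resistant cells and PLOD1 and PLOD3 by sensitive ones. Of the 24 steps between neighbouring groups, 22 were called. That count takes in the steps of LOXL1 and LOXL4 between the lines, which the filter on low counts had fixed. It also takes in the steps of LOXL4 and PLOD1 within SKMel28 and of PLOD3 within A375, whose calls were lost in some alternatives. Steps between the lines used also resistant A375 against sensitive SKMel28, where 83.8% of tested genes were called, and sensitive A375 against resistant SKMel28, where 85.6% were. Libraries overlapped at 3 steps: the LOX step within A375 and the LOXL1 and PLOD1 steps within SKMel28.

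Dividing each gene's CPM by the length of all its exons in GENCODE release 29 allowed the members to be set beside each other. In sensitive A375, LOXL4 made up 52.6% ± 0.853 (SD, n = 3) of the family's CPM per kilobase, LOXL2 28.0% and LOXL3 19.1%. In resistant A375 LOXL2 held 61.8% ± 0.761, LOXL4 19.6%, LOXL3 14.1% and LOXL1 4.37%. The leading oxidase of A375 was thus LOXL4 before and LOXL2 after resistance, in all 3 libraries of each group. In sensitive SKMel28 LOXL3 (43.7% ± 3.22) and LOXL2 (43.2% ± 3.24) were level within their spread and LOX held 12.7%. In resistant SKMel28 LOXL2 held 64.2% ± 1.81, LOXL3 33.4% and LOX 2.37%. The size of these shares depends on the length used, and the SDs cover the spread between libraries only. In sensitive A375 LOXL4 had 60.9 CPM per kilobase by all exons and by the longest transcript alike. LOXL2 had 32.4 there by all exons and 52.1 by the longest transcript.

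Among the hydroxylases PLOD3 led in 3 groups, with 48.7% in sensitive A375, 53.2% in resistant A375 and 53.5% in sensitive SKMel28. In resistant SKMel28 PLOD1 led with 45.3% ± 0.397 and PLOD3 held 37.4% ± 0.467. PLOD2 held the smallest share in every group, and its share was higher in resistant libraries, at 16.8% against 12.4% in A375 and 17.2% against 7.91% in SKMel28. Summed without regard to length, the 5 oxidases came to 505 ± 19.8 CPM in sensitive and 440.1 ± 3.58 CPM in resistant A375, and to 102 ± 1.70 and 88.9 ± 6.21 CPM in SKMel28. The 3 hydroxylases came to 559 ± 11.5 and 490.3 ± 8.84 CPM in A375 and to 1419 ± 41.2 and 1166 ± 24.1 CPM in SKMel28. Both sums were thus lower in resistant libraries of each line, and oxidases were the more abundant in A375 relative to SKMel28, hydroxylases the less. With the longest transcript as length the order held in 7 of 8 cases, and in sensitive SKMel28 LOXL2 came before LOXL3.

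**Figure D3:**
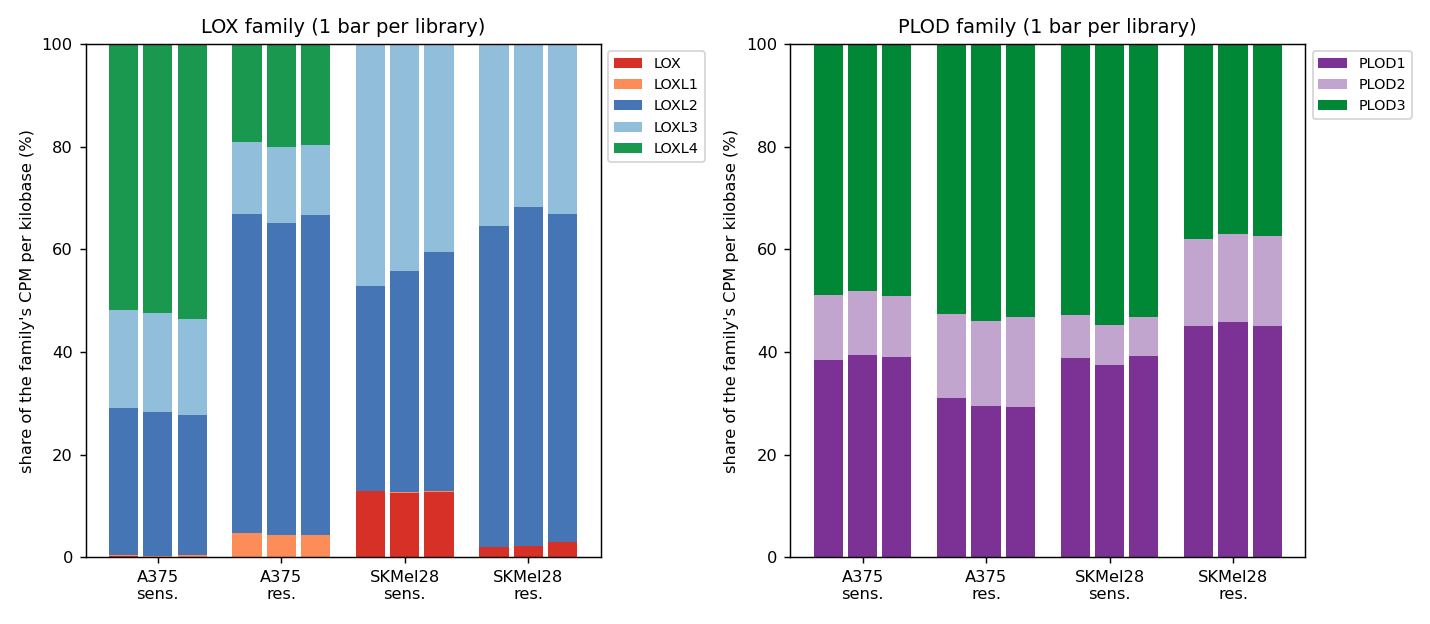
Share of each gene in its family's summed CPM per kilobase of exon (percent), with 1 bar per library and 3 bars per group, for the 5 oxidases (left) and the 3 hydroxylases (right). LOXL4 fills 51.9% to 53.5% of the sensitive A375 bars and from 19.1% upward, with a mean of 19.6%, of the resistant ones, and PLOD2 widens with resistance in both lines.

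Each member was also set beside the tested genes that start within 5 Mb of it, of which positions were known for 93.6% of tested genes. PLOD1 in A375 moved like its surroundings, with a log2 change of -0.60 against a median of -0.55 over 76 neighbours, of which 32 lay below it. The median there was -0.61 within 2 Mb and -0.52 within 10 Mb, and in SKMel28 it was -0.10 within 5 Mb. LOXL1 stood apart from its surroundings in A375: all 85 neighbours changed less, with a median of 0.08. LOXL4 lay below all but 2 of its 96 neighbours (median 0.03) in A375, and LOXL3 below all but 1 of 71 (median 0.04).

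In SKMel28 LOX lay below all 17 of its neighbours, whose median was 0.29. PLOD3 had 8 of 109 neighbours below it (median -0.03) and PLOD2 34 of 38 (median 0.06). LOXL2 rose in SKMel28 in a region where the median of 59 neighbours was -0.45, and 52 of them lay below it. In A375 the median around LOXL2 was 0.06, around PLOD3 0.03, around LOX -0.20 and around PLOD2 -0.02, although 4 neighbours within 2 Mb of PLOD2 had a median of -0.48.

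**Figure D4:**
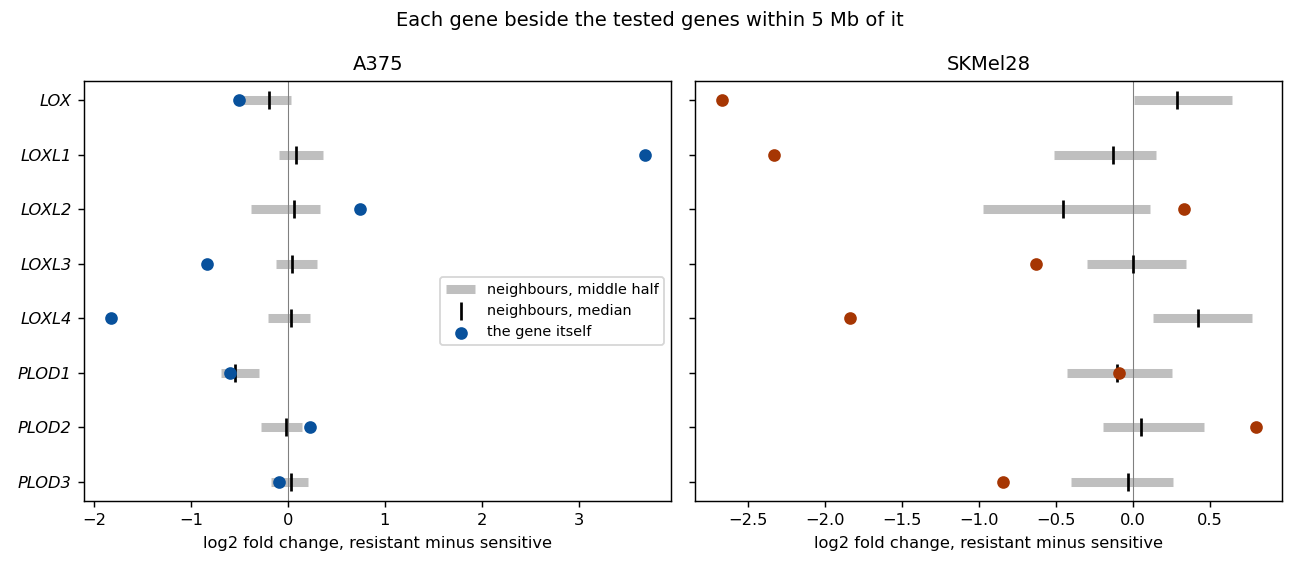
Log2 fold change of each member (coloured point), resistant minus sensitive, beside the tested genes within 5 Mb of it (grey bar from lower to upper quartile, black tick at the median), in A375 and SKMel28. PLOD1 sits inside the grey bar in both lines, while LOXL1 in A375 and LOX in SKMel28 sit far outside it.

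Enzymes and chaperones that fold collagen in the endoplasmic reticulum, where the hydroxylases act, moved in both directions. Of 18 tested genes, A375 had 6 that rose and 7 that fell (median change 0.00), and SKMel28 had 5 and 9 (median -0.18, or -0.26 without the 1 gene at or under 3 reads in both groups). SERPINH1, the collagen chaperone HSP47, fell from 137 to 92.4 CPM in A375 (log2 fold change -0.57 ± 0.04) and rose from 91.8 to 156 CPM in SKMel28 (0.76 ± 0.04). In A375 P3H1, a prolyl 3-hydroxylase, fell by 0.93 and P4HA1, a prolyl 4-hydroxylase subunit, by 0.59 on the log2 scale. In SKMel28 P4HB, its partner subunit and protein disulphide isomerase, fell by 0.57, while the prolyl isomerase PPIB rose by 0.57.

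The collagen chains on which all 8 enzymes act mostly fell in A375 and more often rose than fell in SKMel28. In A375 edgeR called 10 of 13 as lower and 0 as higher (median -0.69), with 0 higher also at an unadjusted p below 0.05 and with DESeq2. In SKMel28 it called 7 as higher and 4 as lower (median 0.73). In A375 the basement membrane chain COL4A2 fell from 567 to 353 CPM, COL12A1 from 109.7 to 47.8 CPM and COL5A1 from 15.3 to 2.23 CPM. In SKMel28 COL11A1 rose from 78.9 to 194 CPM and COL5A3 from 11.1 to 34.7 CPM, and COL6A2 fell from 23.3 to 6.06 CPM. COL1A1, a chain of the most abundant fibrillar collagen, was scarce in every group, with means of 1.05 to 4.73 CPM.

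Among the proteases that trim procollagen and their enhancers, 1 of 5 tested genes rose and 1 fell in A375. In SKMel28 edgeR called 4 as lower and 0 as higher, and 0 were higher at an unadjusted p below 0.05 or with DESeq2. The count of higher genes was 1 in 1 of the alternatives, and the count of lower genes was 5 in 1. BMP1, which also matures LOX, fell in SKMel28 from 47.3 to 34.9 CPM (log2 fold change -0.44 ± 0.06, edgeR adjusted p = 5.45e-08). In A375 it went from 27.0 to 30.5 CPM (0.18 ± 0.07, edgeR adjusted p = 0.0232), a call lost without A375 sensitive replicate 3 (0.0802, the highest of 18 alternatives). ADAMTS3, a procollagen N-proteinase, fell in both lines, by 1.43 in A375 and by 2.08 in SKMel28 on the log2 scale.

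Elastic fibre and fibronectin genes, the other substrates and partners of the oxidases, were mixed, with 5 of 16 higher and 8 lower in resistant A375, and 6 higher and 5 lower in resistant SKMel28 (medians -0.46 and -0.06, the latter -0.11 without the 1 gene at or under 3 reads in both groups). EMILIN1, an elastic fibre glycoprotein, fell from 104 to 2.40 CPM in A375 (log2 fold change -5.44 ± 0.09), where LTBP1 and LTBP2, which bind latent TGF-beta or microfibrils, rose by 1.31 and 0.89. In SKMel28 fibrillin FBN1 rose from 0.798 to 5.76 CPM, FBLN2 fell from 6.40 to 0.272 CPM and LTBP3 from 42.0 to 17.5 CPM. Elastin itself, ELN, did not pass the filter on low counts, with group means of at most 0.0566 CPM.

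Copper and ascorbate genes, which serve the cofactors of both families, fell in SKMel28, where edgeR called 6 of 7 as lower and 0 as higher (median -0.61). In A375 it called 3 as higher and 1 as lower (median 0.14). ATOX1, the copper chaperone that hands copper to the secretory pathway, fell from 623 to 133 CPM in SKMel28 (log2 fold change -2.23 ± 0.04, edgeR adjusted p = 8.17e-39). SLC23A2, an ascorbate carrier, fell from 306 to 200.5 CPM in SKMel28 and from 56.7 to 42.4 CPM in A375. The copper carrier SLC31A2 rose by 0.54 in A375 and fell by 1.18 in SKMel28, and SLC31A1, the main importer, rose by 0.30 in A375. The remaining gene, the copper-exporting ATPase ATP7A, had a log2 fold change of 0.16 in SKMel28 (edgeR adjusted p = 0.0534). At an unadjusted p below 0.05 it made 1 gene higher. The count of higher genes was 0 with the DESeq2 test and 1 in 13 of the alternatives.

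Hypoxia response genes, 15 in number, held 4 that rose and 7 that fell in A375 (median -0.04), against 3 and 9 in SKMel28 (median -0.39). In SKMel28, where LOX fell and PLOD2 rose, VEGFA fell from 91.9 to 23.4 CPM and PGK1 from 854 to 413 CPM, while EPAS1, which encodes HIF-2 alpha, rose from 49.0 to 156 CPM. In A375 the glucose carrier SLC2A1 fell from 364 to 171 CPM and EPAS1 rose from 3.92 to 7.88 CPM. HIF1A fell from 417 to 295 CPM in SKMel28 and from 207 to 180 CPM in A375. LOX and PLOD2, whose upstream windows shown above both hold ACGTG, went opposite ways in SKMel28. Any part of hypoxia-inducible factors in these changes was not tested.

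Of 9 matricellular and contractile genes that respond to TGF-beta or YAP, A375 had 6 higher and 2 lower (median 0.27) and SKMel28 had 4 each way (median -0.16). CYR61, a secreted matricellular protein, rose in each line, in SKMel28 from 26.5 to 169 CPM and in A375 from 125 to 241 CPM. CTGF rose from 83.5 to 185 CPM in A375 and fell from 65.6 to 48.7 CPM in SKMel28, and TAGLN rose from 0.288 to 10.2 CPM in SKMel28.

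**Figure D5:**
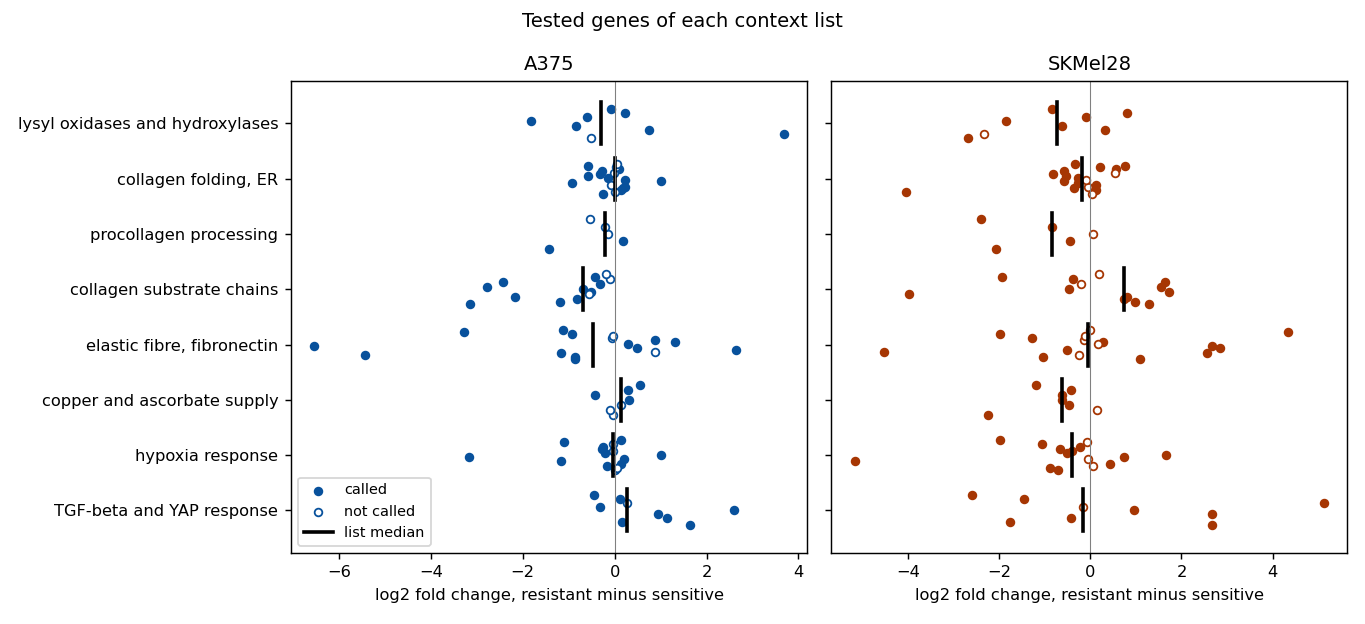
Log2 fold change, resistant minus sensitive, of every tested gene of the 8 members and of 7 gene lists around them, in A375 (left) and SKMel28 (right), with filled points for adjusted p below 0.05 and a black tick at each list's median. The collagen chains have a median of -0.69 in A375 and 0.73 in SKMel28.

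The genes whose log2 CPM followed each member most closely over the 12 libraries were ranked by Pearson's r, given as a description since the libraries fall into 4 groups and share depth and line. LOX ran with MC1R, the melanocortin receptor (r = 0.983), which had means of 14.3 and 12.7 CPM in A375 and 196 and 38.4 CPM in SKMel28, sensitive and resistant. Its r with MRPS11, a mitochondrial ribosomal protein gene, was also 0.983, with means of 57.1, 58.6, 172 and 89.7 CPM in the same order. LOXL1 ran with TBRG1 (0.993) and PVRL1 (0.989), LOXL2 with CHAC2 (0.997) and DNMBP (0.996), and LOXL3 with CLDN4 (0.994). A high r does not mean a change of like size. In A375 TBRG1 went from 38.4 to 58.9 CPM where LOXL1 rose 12.8-fold. CLDN4 went there from 12.8 to 1.85 CPM where LOXL3 went from 96.2 to 54.0 CPM. LOXL4 ran with UNC13D (0.998), which fell from 31.3 to 16.4 CPM in A375 and stayed under 1 CPM in SKMel28. PLOD1 ran with PITHD1 (0.998), PLOD2 with ASAP1 (0.996), which rose from 141 to 266 CPM in SKMel28, and PLOD3 with the hexokinase HK2 (0.999), which fell from 414 to 194 CPM in SKMel28 and had 107 and 100.2 CPM in A375.

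Markers of cell types other than melanocytes were summed as well, and their part in the results was not tested. Keratinocyte markers summed to 120.4 to 124 CPM in sensitive and 83.3 to 93.7 CPM in resistant A375 and to 66.4 to 70.4 and 28.5 to 34.1 CPM in SKMel28, with KRT1 without reads in all 4 groups. KRT10 made up most of that sum, with means of 95.9 and 88.7 CPM in A375, a change that was not called, and 68.2 and 30.8 CPM in SKMel28. In A375 KRT14 fell from 25.5 to 0.499 CPM (log2 fold change -5.67 ± 0.18). Immune markers summed to 28.8 to 33.6 and 55.9 to 59.9 CPM in sensitive and resistant A375 and to 206 to 219 and 758 to 764 CPM in SKMel28. CD68 made up nearly all of these sums, and CD3E had no reads in any group. Endothelial markers summed to at most 6.50 CPM in any library. Fibroblast markers summed to 25.8 to 28.1 CPM in sensitive and 18.6 to 22.0 CPM in resistant A375 and to 28.1 to 29.3 and 17.7 to 21.4 CPM in SKMel28, and of its 8 genes 4 reached 1 CPM in A375 and 3 in SKMel28. In SKMel28 edgeR called 2 of these markers higher and 2 lower. LUM made up most of the sum there, with 22.7 CPM in sensitive and 14.0 CPM in resistant cells. FAP fell from 2.96 to 0.466 CPM (log2 fold change -2.65 ± 0.37), whereas PDGFRA rose from 0.500 to 1.07 CPM and COL1A1 from 2.08 to 3.63 CPM. Any link of these markers to LOX in SKMel28 or to LOXL1 in A375 was not tested.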

How the data were processed

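The authors deposited raw read counts, 1 file for each of the 12 libraries, with a row per gene symbol and htseq-count-like totals at the end. HISAT2, StringTie and GRCh38.p12 are given in the submitters' processing notes, but the names of the deposited files read STAR, hg38 and unstranded counting, so the aligner behind the counts is not settled. Of counted reads, 15.1% to 19.5% were assigned to no gene and 1.14% to 1.39% were ambiguous; these were left out of library sizes. Counts were filtered with filterByExpr (minimum 10 reads), scaled by TMM and fitted with edgeR 4.0.16 (R 4.3.3) as 4 group means over all 12 libraries, with 8 residual degrees of freedom. The biological coefficient of variation was 4.20%, and replicates of a group differed beyond sampling noise (chi-square per degree of freedom 2.81 to 7.45). Contrasts were resistant minus sensitive in each line, their difference, and A375 minus SKMel28 in sensitive and in resistant cells; the 2 remaining pairs of groups were added after seeing the data. DESeq2 1.42.0 was an alternative. Positions and lengths came from GENCODE release 29 (GRCh38) and upstream sequences from RefSeq (GRCh38.p14). Floors are 3 reads over a group, intervals are 95% exact, and both cover counting error only. No batch is labelled.

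The members and lists were chosen with earlier results of these data known. Named beside the members were up to 3 called genes per list and line of smallest adjusted p, and per member the best-correlated genes among those whose highest group mean reached 10 CPM. Genes given beside these (ELN, COL1A1, ATP7A, HIF1A, LUM, PDGFRA, MITF, PAX3 and overlapping genes) were chosen after their values were seen. In the marker lists, sums are given in place of most single genes. A gene that this rule names is not reported here.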

Additional observations from a re-analysis of the deposited data

Results flagged for a closer look

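The change with resistance differed between the lines, by the test of the difference itself, for 7 members (A375 change minus SKMel28 change, log2, edgeR's quasi-likelihood test adjusted over all genes, under which 63.8% of tested genes differed). LOXL1 differed by 6.01 and LOX by 2.16. In both cases the gene was scarce in the line where it did not pass the test, LOXL1 in SKMel28 and LOX in A375. PLOD3 differed by 0.75 and LOXL2 by 0.41. PLOD2 differed by -0.57, PLOD1 by -0.51 and LOXL3 by -0.21, the last the least stable of them. Groups of 3 libraries are too small for a check of outlying libraries.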

How the results depend on the processing

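No member changed direction among called values under the alternatives run. Leaving out each library in turn gave 6 to 7 members called in A375, 5 to 7 in SKMel28 and 6 to 7 for the difference between lines, and all 8 in both line contrasts. Among those 8, LOXL1 and LOXL4 passed the filter through A375 alone and had to differ between the lines. Over all tested genes, the same fits called 3450 to 4205 as higher and 3424 to 4261 as lower in A375. They called 5081 to 5448 and 5273 to 5574 in SKMel28, and 4698 to 4969 and 4732 to 5044 for the difference. The line contrasts called 6428 to 6658 and 6190 to 6362 in sensitive and 6503 to 6691 and 6450 to 6753 in resistant cells. The main fit called 51.3% of tested genes in A375, 70.0% in SKMel28, 63.8% for the difference and 82.9% and 85.3% in the line contrasts. The count of members falling in SKMel28 ranged from 3 to 5, with 3 without SKMel28 resistant replicate 3, which lost LOXL4 and PLOD1. Other scalings, no filter and DESeq2 each gave 6 or 7 members called in A375, in SKMel28 and for the difference. Over all genes these settings called 4351 to 4440 as higher and 3561 to 3778 as lower in A375. In SKMel28 they called 5019 to 5530 and 5471 to 5856, and for the difference 5071 to 5329 and 4522 to 4968. A fit of only the SKMel28 libraries could not test LOXL1 and LOXL4, which its filter on low counts removed, and called 6. Over all genes that fit called 5235 as higher and 5248 as lower. Library size alone moved the summed levels: the oxidases came to 532 and 473 CPM in sensitive and resistant A375 and to 96.5 and 82.5 CPM in SKMel28, the hydroxylases to 588 and 527 CPM and to 1349 and 1082 CPM. Replicate numbers gave no clear pairing of the libraries. Deviations of same-numbered libraries correlated at -0.00240 to 0.0301 in A375 and 0.00767 to 0.0471 in SKMel28. Those of different-numbered libraries correlated at -0.0221 to 0.0161 and at -0.0422 to 0.0135. In SKMel28 every library but sensitive replicate 2 correlated best with its own number, so a weak pairing there cannot be set aside. Not every A375 library did so. With the replicate block 7 members were called in A375, 7 in SKMel28, 7 for the difference and 8 in each line contrast. No member call changed, and in the line contrasts those of LOXL1 and LOXL4 were again fixed by the filter. Over the 15506 tested genes the block gave 3942 higher and 4135 lower in A375 and 5327 and 5569 in SKMel28. It gave 4898 and 5065 for the difference, and 6541 and 6244 in sensitive and 6572 and 6593 in resistant cells between the lines. Depth limits LOXL1 and LOXL4 in SKMel28 (7 and 18 reads in all) and LOX in A375.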
